A study of Sus scrofa with 12 samples.

Results

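The 10 smooth muscle contractile genes ACTA2, ACTG2, MYH11, TAGLN, CNN1, DES, MYLK, LMOD1, SMTN and MYOCD were taken from the gene expression table of porcine ovaries by their exact symbols, 10 of 29884 rows, by a rule that uses no measured value. The list of members itself was chosen with earlier results of these data known. All 10 were found and all 10 passed the filter on low values (at least 1 FPKM in at least 3 libraries), as did 12260 genes in all. FPKM are fragments scaled to the length of the transcript and to the depth of the library, so levels of different genes are compared per length here. The ovaries came from Sus scrofa sows of a commercial herd, the left ovary of each, frozen 4 days after the 4th delivery. Of the 6 ovaries, 3 (ZD2, ZD3 and ZD12) were labelled small litter size (SLS, 8.48 ± 0.53 piglets per litter) and 3 (ZD5, ZD7 and ZD8) large litter size (LLS, 16.19 ± 0.43 piglets per litter). The study states in general that its results are given as mean ± SEM. No sow was given a treatment, and breed and age are not in the labels. RNA was depleted of ribosomal RNA and sequenced with 1 library per ovary, and a small RNA library was made of each of the same ovaries.

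Smooth muscle shortens when myosin filaments pull on actin filaments. Calcium entering the cell binds calmodulin, which switches on myosin light chain kinase, and the phosphorylated myosin then cycles along actin until a phosphatase removes the phosphate. The genes of the apparatus are switched on together by serum response factor (SRF), which binds the CArG box, with myocardin (MYOCD) as its muscle coactivator. In the ovary, smooth muscle lies in the walls of the arteries and veins of the medulla and hilum, in the stroma and in the outer layer of the theca around follicles, where it contracts at ovulation. In whole-tissue RNA, fewer smooth muscle cells and less of a transcript per cell cannot be told apart.

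The depth was between 32272803 and 60903268 reads per gene library, lowest in ZD8, and each member rested on between 246 reads (MYOCD in ZD5) and 93759 reads (ACTA2 in ZD2). The LLS ovary ZD8 stood apart from the other 5. The 7 luteal markers (STAR, CYP11A1, HSD3B1, SCARB1, LHCGR, PTGFR and PRLR) summed to 124 FPKM there and to between 9167 and 12191 FPKM in the others, and the 3 theca markers (CYP17A1, INSL3 and LHCGR) to 425 FPKM against 33.5 to 121. The theca sum of ZD8 was INSL3 (298 FPKM) and CYP17A1 (117 FPKM), while LHCGR, which is in both lists, was lowest there. Why ZD8 differed, sample identity included, was not tested, and the doubt applies to each LLS value that includes it. The comparisons between groups were therefore also made without ZD8. Of the 12260 tested genes, 44.6% were highest in ZD8 and 18.97% were lowest in ZD5.

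The 10 genes lie on 8 chromosomes of Sscrofa11.1, and the RefSeq annotation of that build names each. ACTA2 is at chr14:100868145-100886732 on the minus strand (10 exons in the longest transcript), and SMTN lies on the same chromosome at chr14:47879317-47902700 on the plus strand (23 exons). ACTG2 is at chr3:69097366-69121542 on the minus strand (9 exons) and MYH11, with 43 exons, at chr3:7002667-7143093 on the plus strand. TAGLN is at chr9:44561756-44567385 (plus strand, 5 exons), CNN1 at chr2:70183370-70190756 (plus strand, 7 exons) and DES at chr15:121428539-121435426 (plus strand, 9 exons). MYLK, at chr13:136509878-136809674 on the plus strand, has 34 exons in its longest transcript and 12 annotated transcripts from 10 starts. LMOD1 is at chr10:24165293-24194823 on the minus strand (3 exons) and MYOCD at chr12:56931628-57029258 on the plus strand (14 exons).

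The CArG box is the sequence by which SRF recognises these genes, and the boxes that lie before an annotated transcript start of a member are shown for that reason. The box was searched by its name's consensus, which reads the same on both strands, so 1 strand covers both. Within 250 bases before to 50 bases after any annotated start it was found in 2 of the 10 members (20%), TAGLN and CNN1, and in 490 of 19556 protein-coding genes (2.51%). Within 2000 bases on either side it was found in 7 of the 10 (70%), all but DES, LMOD1 and MYOCD, and in 5107 of 19550 protein-coding genes (26.1%). Genes with more annotated starts, MYLK among them, were searched over more bases. In the lines below, from the RefSeq reference, each on the plus strand, the capitals mark the box. They are, in order, TAGLN chr9:44561555-44561584 and chr9:44561682-44561711, with the first base of the box at -191 and -64 from the start. Then follow CNN1 chr2:70184443-70184472, at -29 from an inner start and inside an intron of a longer transcript, MYH11 chr3:7001570-7001599, at -1087, and SMTN chr14:47878002-47878031, at -1305.
TAGLN, first box: gtcctcctgtCCATAAAAGGcttttcccgg
TAGLN, second box: gtgtctttccCCAAATATGGagcctgtgtg
CNN1: agccgccgagCCATATAAGGcgggctccgg
MYH11: gccgcggcttCCTTTTATGGcctgtgtgcg
SMTN: aactacagctCCTAAATTGGgctctgtttg
A match is a description of the sequence and not a measured binding site.

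All 10 genes were detected in all 6 ovaries, but their levels differed by a factor of 3.51 (DES) to 13.1 (MYOCD) between the highest and the lowest ovary. ACTA2 was the most abundant, with a mean of 512 FPKM over the 6 ovaries, and TAGLN the second, with 309 FPKM. A middle group of MYH11 (54.5 FPKM), MYLK (51.6), SMTN (46.6) and ACTG2 (39.5) overlapped from ovary to ovary, so that no order among them held beyond the spread. The same was true of DES (16.1 FPKM) and CNN1 (15.5), and of LMOD1 (6.02) and MYOCD (5.87). Each of the 10 genes was lowest in the LLS ovary ZD5, where 18.97% of all tested genes were lowest. The cytoplasmic actins ACTB and ACTG1 were also lowest there. The highest ovary split the genes in 2 sets. ACTA2, ACTG2, TAGLN and CNN1 were highest in the SLS ovary ZD2, and MYH11, MYLK, SMTN, DES, LMOD1 and MYOCD were highest in ZD8. These 6 of 10 in ZD8 stand beside 44.6% of all tested genes.

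**Figure D1:**
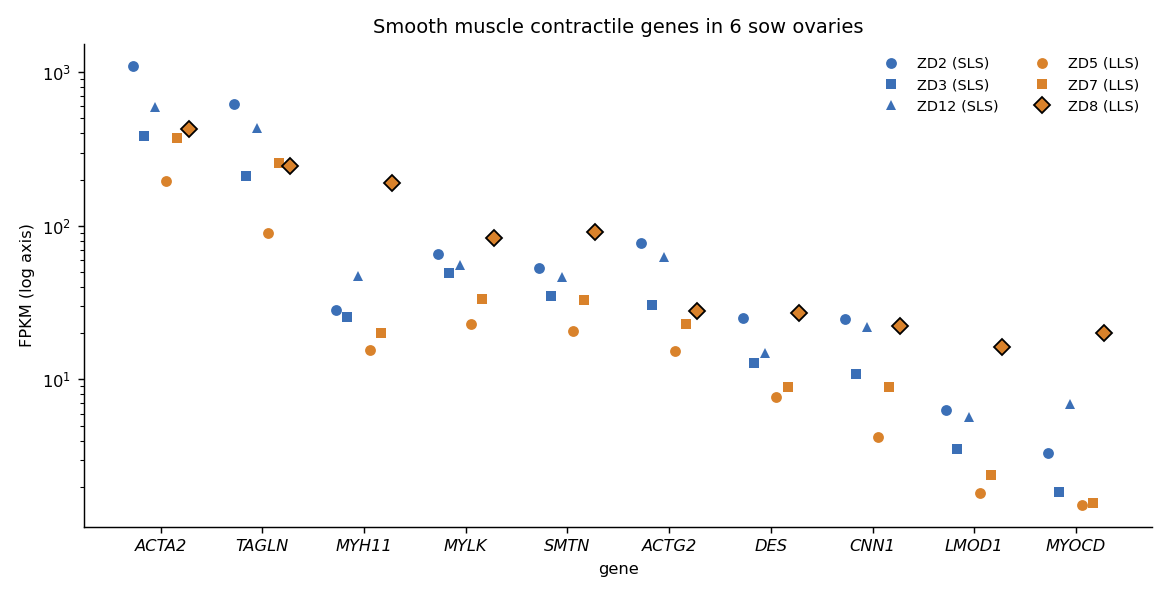
FPKM (log axis) of the 10 genes in each of the 6 ovaries, ordered by mean level, with SLS ovaries in blue, LLS ovaries in orange and ZD8 as an outlined diamond. ZD5 is the lowest point for every gene, and ZD8 is the highest for 6 of them, by the widest margin for MYH11 and MYOCD.

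ACTA2 encodes smooth muscle alpha-actin, the main actin of vascular smooth muscle, which pericytes and myofibroblasts also make. It was at 1098, 384 and 592 FPKM in ZD2, ZD3 and ZD12 (SLS), and at 196, 374 and 428 FPKM in ZD5, ZD7 and ZD8 (LLS). ZD2 was high and ZD5 low, and ZD8 overlapped with the SLS ovaries, above ZD3. The group means were 692 ± 367 FPKM in SLS (SD, n = 3 ovaries) and 333 ± 122 FPKM in LLS (SD, n = 3). The difference, LLS minus SLS on the log2(FPKM + 1) scale, was -0.99 (standard error 0.56, 95% interval -2.28 to 0.30, adjusted p = 0.999 by limma, exact two-sided permutation p = 0.2).

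ACTG2 encodes the gamma-actin of enteric and other visceral smooth muscle. Its FPKM were 77.6, 30.5 and 63.0 in ZD2, ZD3 and ZD12, and 15.4, 23.0 and 27.8 in ZD5, ZD7 and ZD8. All 3 LLS ovaries were below all 3 SLS ovaries, the only member for which this held, although ZD3 and ZD8 were close. The means were 57.0 ± 24.1 FPKM in SLS and 22.1 ± 6.26 FPKM in LLS (SD, n = 3 each). The log2 difference of -1.27 was the largest of the 10 (standard error 0.40, 95% interval -2.19 to -0.35), with an unadjusted p of 0.0128 and an adjusted p of 0.999 by limma. The exact permutation p was 0.1, the smallest that 3 ovaries against 3 allow.

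MYH11 encodes the myosin heavy chain of smooth muscle, the gene among the members most restricted to differentiated smooth muscle. It was at 28.4, 25.6 and 47.1 FPKM in ZD2, ZD3 and ZD12, at 15.5 and 20.1 FPKM in ZD5 and ZD7, and at 190.3 FPKM in ZD8. The value of ZD8 was 4.04 times the next highest, and it came from 41173 reads in the shallowest library. ZD5 and ZD7 were both below the 3 SLS ovaries. The log2 difference of all 3 LLS from 3 SLS ovaries was 0.28 (standard error 0.84, 95% interval -1.65 to 2.20, exact permutation p = 1, adjusted p = 0.999 by limma), and without ZD8 it was -0.84 (standard error 0.30, adjusted p = 0.596).

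MYLK encodes myosin light chain kinase, which phosphorylates the regulatory light chain and so starts contraction, in long and short forms from several promoters. Its FPKM were 65.2, 49.4 and 55.3 in ZD2, ZD3 and ZD12, and 22.8, 33.2 and 83.4 in ZD5, ZD7 and ZD8. The SLS ovaries were close together, with 56.6 ± 8.00 FPKM (SD, n = 3), while the LLS values lay on both sides of them, with 46.5 ± 32.4 FPKM (SD, n = 3). The log2 difference was -0.48 (standard error 0.46, 95% interval -1.53 to 0.56, adjusted p = 0.999 by limma, exact permutation p = 0.5). The deposited value divides all reads of the gene by the longest transcript (8279 nt), so the long, short and telokin forms were not separated. Exons of MYLK overlap those of the antisense gene LOC102157484 by 130 nt, no exon of another member overlaps another gene, and whether the counting used strand is not stated.

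TAGLN encodes transgelin (SM22), an actin cross-linker that is an early marker of the lineage. Its FPKM were 619, 212.5 and 432 in ZD2, ZD3 and ZD12, and 90.3, 256 and 246 in ZD5, ZD7 and ZD8. The groups overlapped through ZD3, which was below ZD7 and ZD8. The log2 difference was -1.10 (standard error 0.58, 95% interval -2.43 to 0.22, adjusted p = 0.999 by limma, exact permutation p = 0.3). TAGLN followed ACTA2 from ovary to ovary, between 46.0 and 73.0 FPKM per 100 FPKM of ACTA2, and was below it in all 6.

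CNN1 encodes calponin, which binds actin and slows the myosin cycle. It was at 24.8, 10.9 and 21.9 FPKM in ZD2, ZD3 and ZD12, and at 4.21, 8.98 and 22.2 FPKM in ZD5, ZD7 and ZD8. ZD5 and ZD7 were below all SLS ovaries and ZD8 was in their upper range. The log2 difference was -0.85 (standard error 0.55, 95% interval -2.11 to 0.41, exact permutation p = 0.3, adjusted p = 0.999 by limma), and -1.41 without ZD8 (standard error 0.39, adjusted p = 0.320).

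SMTN encodes smoothelin, an actin-associated protein of contractile smooth muscle. Its FPKM were 53.2, 34.8 and 46.6 in ZD2, ZD3 and ZD12, and 20.8, 33.0 and 90.9 in ZD5, ZD7 and ZD8. LMOD1 encodes leiomodin, which nucleates actin filaments, and was at 6.32, 3.53 and 5.68 FPKM in ZD2, ZD3 and ZD12 and at 1.82, 2.40 and 16.4 FPKM in ZD5, ZD7 and ZD8. For both genes the SLS ovaries lay between ZD5 and ZD7 on the low side and ZD8 on the high side. ZD8 was 1.71 times (SMTN) and 2.59 times (LMOD1) the next highest ovary. The log2 differences were -0.15 for SMTN (standard error 0.51, 95% interval -1.31 to 1.01) and -0.14 for LMOD1 (standard error 0.65, 95% interval -1.62 to 1.35), with an adjusted p of 0.999 by limma for each.

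DES encodes desmin, the intermediate filament that ties the contractile units together in muscle of all kinds. It was at 25.1, 12.8 and 14.9 FPKM in ZD2, ZD3 and ZD12, and at 7.73, 8.92 and 27.1 FPKM in ZD5, ZD7 and ZD8. ZD2 and ZD8 were close together at the top, and the log2 difference was -0.41 (standard error 0.48, 95% interval -1.51 to 0.69, adjusted p = 0.999 by limma, exact permutation p = 0.6). Of 12 striated muscle markers, 11 (MYH1, MYH2, MYH7, TNNT3, TNNI2, TNNT2, MYL1, MYOD1, MYOG, TTN and ACTN2) were under 1 FPKM in all 6 ovaries, and the 12 summed to 1.82 to 2.54 FPKM in SLS and 1.82 to 4.13 FPKM in LLS. The other, CKM, was at 0.178 FPKM in ZD8 and at 1.32 to 3.97 FPKM elsewhere. ACTN2 and TTN were at 0.612 and 0.500 FPKM in ZD8 and at most at 0.130 and 0.0574 FPKM elsewhere. Of the 12, 6 were highest in ZD8, each under 1 FPKM, beside 44.6% of all tested genes. MYL1 was listed at 0 in all 6.

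MYOCD encodes myocardin, the coactivator of SRF. Its FPKM were 3.34, 1.84 and 6.96 in ZD2, ZD3 and ZD12, from 570, 266 and 1031 reads. In ZD5, ZD7 and ZD8 they were 1.53, 1.57 and 19.99 FPKM, from 246, 268 and 1806 reads. ZD8 was 2.87 times the next highest, ZD12, and ZD5 and ZD7 were just below ZD3. The log2 difference was 0.16 (standard error 0.81, 95% interval -1.69 to 2.01, adjusted p = 0.999 by limma, exact permutation p = 1). SRF itself varied by a factor of 1.76, with 14.2, 9.68 and 13.9 FPKM in ZD2, ZD3 and ZD12 and 8.78, 14.0 and 15.4 FPKM in ZD5, ZD7 and ZD8. Per 100 FPKM of SRF there were therefore 129 FPKM of MYOCD in ZD8, whereas the remaining ovaries held 11.2 to 50.2 FPKM.

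Whether the contractile genes differed between ovaries of small and large litter size was tested by limma in a fit over all 12260 genes. None of the 10 members passed an adjusted p under 0.05 with an absolute log2 difference over 1, and neither did any other gene (0% of the genes tested), while 216 genes had an unadjusted p under 0.05. On the recovered reads, edgeR called 0 genes and DESeq2 called 20, none of them a member. ACTG2 was 1 of 10 members with an unadjusted p under 0.05 and a lower level in LLS, where 1.21% of all tested genes met the same rule. It was also 1 of 10 whose LLS ovaries were all below the SLS ovaries, against 3.17% of all genes. By the log2 difference, 8 of 10 members were lower in LLS, beside 47.4% of all tested genes, with a median of -0.45 over the members and 0.02 over all genes. The intervals are wide, and for 9 of the 10 genes they include 0. The 5 granulosa markers (FSHR, CYP19A1, AMH, INHA and FOXL2) summed to 384 to 768 FPKM in SLS and 127 to 296 FPKM in LLS, through INHA alone, which had a log2 difference of -1.86. FSHR (1.15), AMH (0.96) and FOXL2 (-0.29) overlapped between the groups, and CYP19A1 was under 1 FPKM in all ovaries. Other markers with all LLS ovaries below all SLS ovaries were LYZ of the 5 leukocyte markers (log2 difference -1.29), LHCGR of the luteal and theca markers (-1.28) and PECAM1 of the 6 endothelial markers (-0.96), and limma gave each an adjusted p of 0.999. The 5 leukocyte markers (PTPRC, CD3E, CD14, CD68 and LYZ) summed to 20.9 to 33.3 FPKM in SLS and 17.9 to 23.9 FPKM in LLS. The part of these cells in the result was not tested.

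Without ZD8, all 10 members were lower in the 2 remaining LLS ovaries than in SLS by the log2 difference, which ran from -1.45 (ACTG2) to -0.73 (SMTN) with a median of -0.98, beside -0.10 over all genes, of which 66.0% were lower. No member passed both thresholds, while 21 genes of 12260 did (0.171%). An unadjusted p under 0.05 was reached by 9 of the 10, all but MYOCD, where 2.74% of all genes reached it on the lower side. The adjusted p of the members by limma lay between 0.279 (MYLK) and 0.859 (MYOCD). For ACTA2 the log2 difference was then -1.21 (standard error 0.46), for TAGLN -1.33 (standard error 0.52), for MYLK -1.004 (standard error 0.26) and for DES -0.95 (standard error 0.30). For LMOD1 it was -0.97 (standard error 0.29) and for MYOCD -0.86 (standard error 0.39). ZD5 and ZD7 were both below all 3 SLS ovaries for 9 of the 10, all but TAGLN, where 11.7% of all genes showed this. Sums of other markers also separated ZD5 and ZD7 from the 3 SLS ovaries. The 3 theca markers summed to 41.3 and 33.5 FPKM in ZD5 and ZD7 against 44.2 to 121 FPKM in SLS, and the 3 mesothelial markers, mainly KRT19, to 0.758 and 1.11 FPKM against 3.02 to 16.5 FPKM. The luteal sum was higher, at 12191 and 10859 FPKM against 9167 to 10808 FPKM, with ZD7 and ZD3 almost level. Its genes did not go together. SCARB1 and PTGFR were higher in ZD5 and ZD7 than in all SLS ovaries, LHCGR was lower, and STAR, CYP11A1 and HSD3B1 overlapped. The sum of the 12 striated muscle markers, mainly CKM, was higher too, at 4.13 and 3.84 FPKM against 1.82 to 2.54 FPKM. The part of these markers in the result was not tested. The members varied together from ovary to ovary, so these counts are not 9 separate observations. With each of the other ovaries left out in turn, between 0 (without ZD2) and 2 (without ZD3) members had an unadjusted p under 0.05, and between 1 and 3 had groups that did not overlap. The median of the members was closest to 0 without ZD5, at -0.10.

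**Figure D2:**
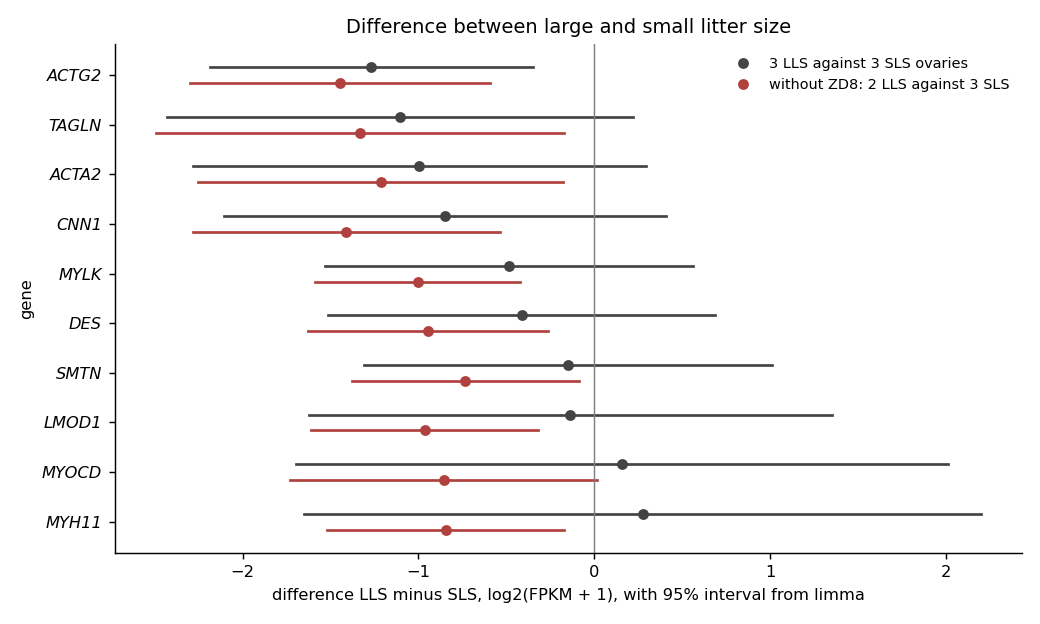
Difference between LLS and SLS ovaries on the log2(FPKM + 1) scale for each gene, with its 95% interval from limma, for 3 LLS against 3 SLS ovaries (grey) and without ZD8 (red). With all 6 ovaries only the interval of ACTG2 lies wholly below 0, and without ZD8 those of 9 genes do, although no adjusted p is under 0.05.

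The 10 genes together summed to 2001, 766 and 1286 FPKM in ZD2, ZD3 and ZD12, and to 376, 761 and 1153 FPKM in ZD5, ZD7 and ZD8. This was between 0.0998% of the whole table in ZD5 and 0.517% in ZD2. The groups overlapped through ZD8, which was above ZD3, while ZD7 was just below ZD3 and ZD5 was lowest (1351 ± 620 FPKM in SLS and 763 ± 388 FPKM in LLS, SD, n = 3 each). ACTA2 and TAGLN made up most of the sum, 76.1% to 85.8% in the other 5 ovaries and 58.5% in ZD8. The mean of log2(FPKM + 1) over the members, after subtracting every gene's own average, gives each gene the same weight and placed ZD8 highest, at 0.91. It was 0.59, -0.29 and 0.44 in ZD2, ZD3 and ZD12, and -1.12 and -0.53 in ZD5 and ZD7.

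The balance among the members set ZD8 apart. MYH11 was at 44.4 FPKM per 100 FPKM of ACTA2 in ZD8 and at 2.59 to 7.95 in the other ovaries. The ratio of both smooth muscle actins was steady by comparison, with 6.49 FPKM of ACTG2 per 100 FPKM of ACTA2 in ZD8 and 6.14 to 10.6 elsewhere. Over the 45 pairs of members, Pearson r of log2(FPKM + 1) over the 6 ovaries had a median of 0.79 and ran from 0.19 (ACTG2 and MYH11) to 0.98 (MYH11 and MYOCD). Over the 5 ovaries without ZD8 the median was 0.92, with 0.60 as the lowest. These are descriptions over few ovaries in which every gene shares the library.

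ACTA2 is 84.7% identical to ACTG2 in its coding sequence and 85.4% identical to the cytoplasmic ACTB, with identical runs of up to 35 and 53 nt. How reads that fit more than 1 gene were counted is not stated, so the split of reads among actins is uncertain to that extent. Of the summed FPKM of the 6 actin genes, ACTA2 took 24.9%, 15.1% and 16.6% in ZD2, ZD3 and ZD12 and 9.54%, 12.4% and 16.97% in ZD5, ZD7 and ZD8. ACTG2 took between 0.748% (ZD5) and 1.77% (ZD12). ACTB and ACTG1, the actins of all cells, took the rest, while the striated actins ACTA1 and ACTC1 were at most 0.676 FPKM. Together the smooth muscle actins were 20.47 ± 5.47% of the actin transcripts in SLS and 13.9 ± 3.94% in LLS (SD, n = 3 each), and ZD8 with 18.1% lay within the SLS range.

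Among the myosin heavy chains, MYH11 shares 78.2% of its coding bases with the non-muscle MYH9 and 75.3% with MYH10. It was 8.37%, 9.64% and 18.0% of the 3 genes' summed FPKM in ZD2, ZD3 and ZD12. In ZD5 and ZD7 it was 7.37% and 7.31%, and in ZD8 it was 50.04%. MYH9 was the most abundant heavy chain in 5 ovaries, with 64.1% to 73.8%, and was at 39.7% in ZD8.

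**Figure D3:**
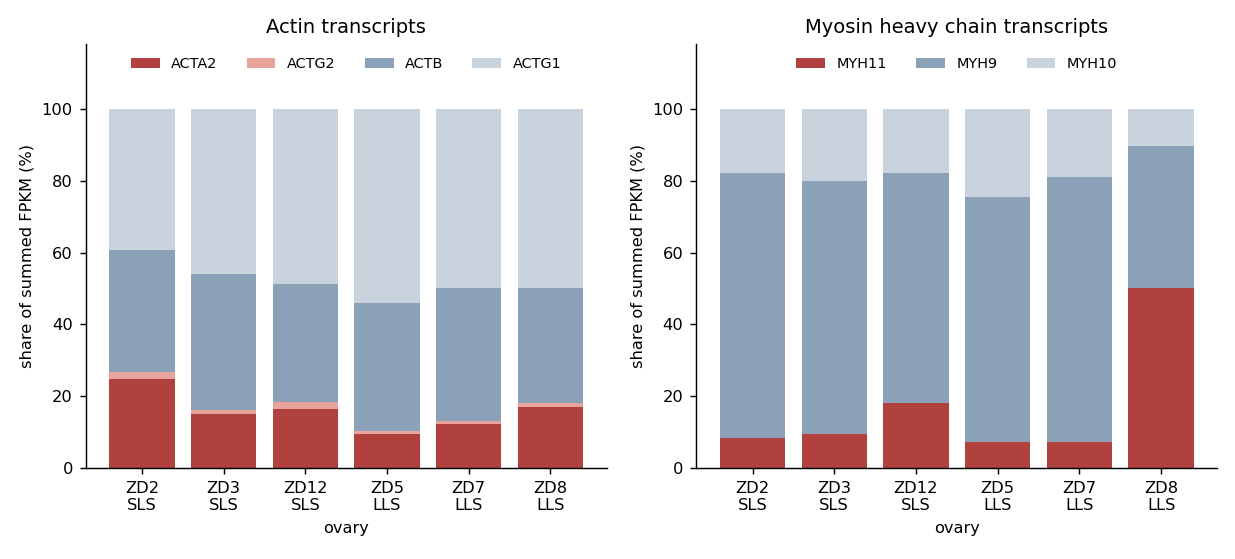
Share (%) of the summed FPKM of 4 actin genes (left) and of 3 myosin heavy chain genes (right) in each ovary, with the smooth muscle genes in red at the bottom of each bar. MYH11 makes up 50.04% of heavy chain transcripts in ZD8 and at most 18.0% in another ovary, while ACTA2 in ZD8 lies within the range of the others.

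Around the members, 80 other genes of the contractile apparatus were grouped in 7 lists by role, and 71 of them passed the filter. None was called between LLS and SLS by limma, edgeR or DESeq2. The median log2 difference of the 71 was -0.20, with 50 below 0 (70.4%, beside 47.4% of all tested genes). An unadjusted p under 0.05 was reached by 2 on the lower side, CAV1 and OXTR (1.21% of all genes), and by 0 on the higher side, where 0.555% of all genes reached it. Without ZD8 the median was -0.25 and 60 of 71 were below 0 (84.5%, beside 66.0% of all genes). An unadjusted p under 0.05 was then reached by 12 of 71 on the lower side, beside 2.74% of all genes, and by 2 on the higher side, beside 3.14%. In this fit of 2 LLS against 3 SLS ovaries 1 of the 71, EDNRB, was called, beside 0.171% of all genes.

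The 10 regulators of the programme had a median log2 difference of 0.02, with 4 of 10 below 0 and 0 at an unadjusted p under 0.05. GATA6, a zinc finger factor of smooth muscle and of ovarian cells, was the most abundant, at 55.8, 59.6 and 60.8 FPKM in ZD2, ZD3 and ZD12 and at 58.7, 56.2 and 34.1 FPKM in ZD5, ZD7 and ZD8. FHL2, a LIM-domain coregulator, was at 47.2, 20.4 and 31.5 FPKM in ZD2, ZD3 and ZD12 and at 12.0, 19.3 and 35.1 FPKM in ZD5, ZD7 and ZD8. Without ZD8 the median of the 10 was -0.14, and FHL2 was the 1 regulator with an unadjusted p under 0.05 (log2 difference -0.99, standard error 0.36, adjusted p = 0.600 by limma). FHL2 was lowest in ZD5, as were the members, and GATA6 was level in all ovaries except ZD8.

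All 9 filament partners (tropomyosins, myosin light chains, caldesmon and the non-muscle heavy chains) had a log2 difference below 0, with a median of -0.36 and 0 at an unadjusted p under 0.05. TPM4, a tropomyosin that coats actin in many cell types, was at 297, 385 and 288 FPKM in ZD2, ZD3 and ZD12 and at 219, 241 and 153 FPKM in ZD5, ZD7 and ZD8, so that its groups did not overlap (log2 difference -0.67, standard error 0.38, adjusted p = 0.999 by limma) and the difference was -0.48 without ZD8. MYH9 had 201 ± 43.5 FPKM in SLS and 166 ± 32.4 FPKM in LLS (SD, n = 3 each). Without ZD8 the median of the 9 was -0.35, and 2 of them, MYL9 (log2 difference -1.06) and TPM1 (-0.58), had an unadjusted p under 0.05, named after their values were seen. ZD8 was the highest ovary for 1 of these 9 genes and for 6 of the 10 members.

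The 11 genes of light chain phosphorylation had a median of -0.20. CALM3, a calmodulin gene, had 150.3 ± 26.7 FPKM in SLS and 129 ± 8.03 FPKM in LLS, and RHOA, the GTPase that keeps the phosphatase off through its kinase, had 297 ± 11.6 and 240.0 ± 83.3 FPKM (SD, n = 3 each). For RHOA the level of ZD8 (144.7 FPKM) lay below the range of the other ovaries (277 to 308 FPKM). The 11 tested calcium channel and store genes had a median of -0.05, and ITPR1 and ATP2A2, the release channel and the pump of the calcium store, had log2 differences of 0.03 and -0.10 (standard errors 0.36 and 0.30). With all ovaries, neither list had a gene at an unadjusted p under 0.05. Without ZD8 the medians were -0.16 and -0.04, and PPP1R12B of the phosphorylation genes (log2 difference -0.92), KCNMA1 (-0.83) and PLN (-1.08) of the calcium genes had an unadjusted p under 0.05 on the lower side, with an adjusted p of at least 0.610 by limma, and these 3 are named after their values were seen.

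The 20 tested genes of dense plaques and cytoskeletal linkers, which fix actin to the membrane, had a median of -0.28, with 15 below 0. Without ZD8 the median was -0.44, with 20 of 20 below 0 and with 4 at an unadjusted p under 0.05 on the lower side. These were CAV1, FLNA (log2 difference -0.85), PDLIM3 (-1.21) and CSRP1 (-0.83), the last 2 named after their values were seen, with an adjusted p of at least 0.484 by limma. VIM, the intermediate filament vimentin, was at 938, 824 and 1233 FPKM in ZD2, ZD3 and ZD12 and at 509, 738 and 847 FPKM in ZD5, ZD7 and ZD8. FLNA, filamin, was at 412.6, 196 and 290.0 FPKM in ZD2, ZD3 and ZD12 and at 117, 213 and 333 FPKM in ZD5, ZD7 and ZD8. CAV1, which builds the caveolae of smooth muscle, endothelium and other cells, was at 65.5, 111 and 74.1 FPKM in ZD2, ZD3 and ZD12 and at 44.5, 59.2 and 38.3 FPKM in ZD5, ZD7 and ZD8. All 3 LLS ovaries were below all 3 SLS ovaries for CAV1, with a log2 difference of -0.79 (standard error 0.32, unadjusted p = 0.0379, adjusted p = 0.999 by limma), and of -0.66 without ZD8 (standard error 0.29, adjusted p = 0.846).

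Of 13 agonists and receptors, 8 were tested, with a median of -0.19, and of -0.37 without ZD8. Without ZD8, OXTR and ADRA1B (log2 difference -0.64, named after its value was seen) had an unadjusted p under 0.05 on the lower side, and EDNRB and PTGFR on the higher side. OXTR, the oxytocin receptor that drives contraction of the uterus, was at 13.3, 7.77 and 6.94 FPKM in ZD2, ZD3 and ZD12 and at 3.17, 4.78 and 1.38 FPKM in ZD5, ZD7 and ZD8. Its groups did not overlap, and the log2 difference was -1.37 (standard error 0.40, unadjusted p = 0.0087, adjusted p = 0.999 by limma). Without ZD8 it was -1.02 (standard error 0.32, adjusted p = 0.441). EDNRB, an endothelin receptor, was at 14.6, 21.3 and 15.7 FPKM in ZD2, ZD3 and ZD12, at 95.8 and 53.4 FPKM in ZD5 and ZD7, and at 10.2 FPKM in ZD8. Its log2 difference was 1.11 with all ovaries (standard error 0.70, adjusted p = 0.999 by limma) and 2.01 without ZD8 (standard error 0.30, adjusted p = 0.0445), so that EDNRB was higher in ZD5 and ZD7, where the contractile members were lower. PTGFR, the prostaglandin F receptor, which luteal cells also carry, was at 57.8, 138 and 76.2 FPKM in ZD2, ZD3 and ZD12 and at 148, 148 and 17.04 FPKM in ZD5, ZD7 and ZD8. Its log2 difference was -0.22 (standard error 0.80) and turned to 0.79 without ZD8 (standard error 0.35, adjusted p = 0.846 by limma). ACTB and ACTG1, the other actins tested, had log2 differences of -0.45 and -0.25 (standard errors 0.57 and 0.63), and of -0.39 and -0.24 without ZD8.

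**Figure D4:**
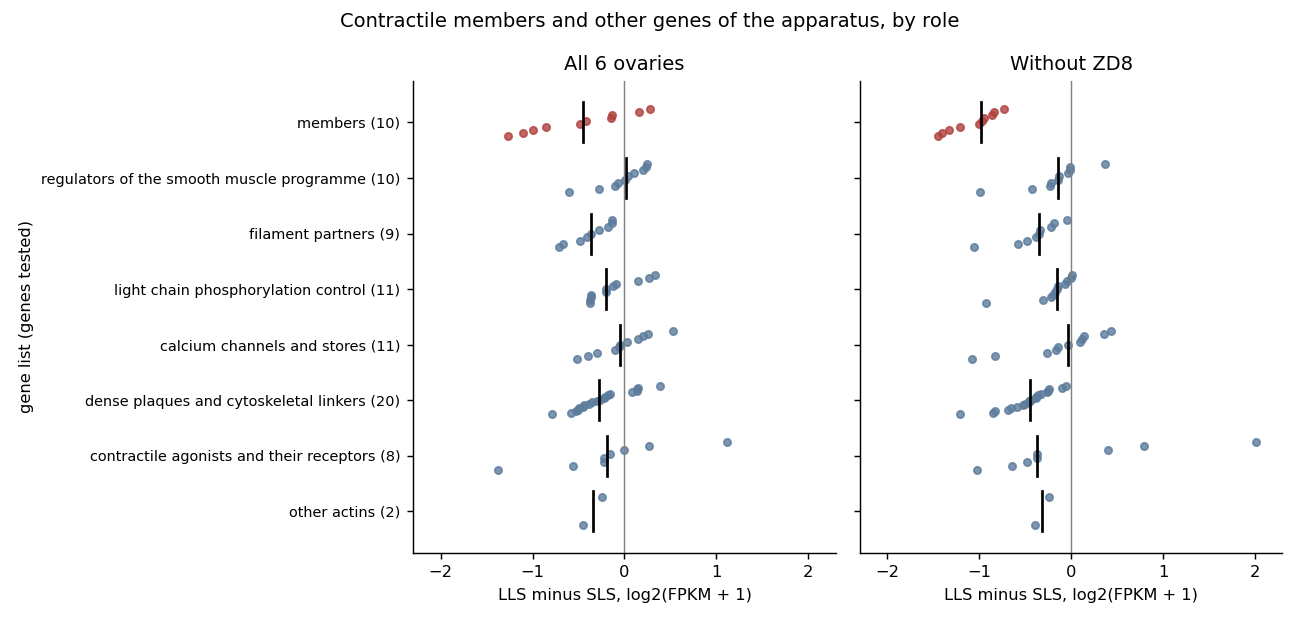
Difference between LLS and SLS on the log2(FPKM + 1) scale for each tested gene, by role, with a bar at the median of each list, for all 6 ovaries (left) and without ZD8 (right). The members (red) have a median of -0.45 with all ovaries and of -0.98 without ZD8, where the medians of the other lists lie between -0.44 and -0.04.

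The markers of other cells that hold some of these genes were read beside them. The 7 pericyte markers (RGS5, PDGFRB, NOTCH3, CSPG4, KCNJ8, ABCC9 and MCAM) were all at or above 1 FPKM in all ovaries and summed to 213 to 333 FPKM in SLS and 238 to 387 FPKM in LLS, with the highest sum in ZD5 through RGS5 (264 FPKM there). Without RGS5 the other 6 summed to 122.9 FPKM in ZD5, level with ZD3 (123.0 FPKM), and to at most 157 FPKM in the other ovaries. The single markers went both ways, since RGS5 and KCNJ8 were highest in ZD5 and NOTCH3 and CSPG4 lowest there. The 6 fibroblast markers (COL1A1, COL1A2, COL3A1, DCN, LUM and PDGFRA) summed to 3768 to 9586 FPKM in SLS and 3373 to 4772 FPKM in LLS. They did not go together, since the 3 collagens were highest in ZD2 and lowest in ZD8, DCN and PDGFRA were highest in ZD8, and LUM was lowest in ZD2. Without ZD8, DCN was lower in LLS, as the members were, with 363 and 453 FPKM in ZD5 and ZD7 against 563 to 859 FPKM in SLS (log2 difference -0.82, standard error 0.33, adjusted p = 0.737 by limma). The same held for FOXL2 of the granulosa markers, with 6.11 and 6.69 FPKM against 7.25 to 30.6 FPKM (log2 difference -1.08, standard error 0.46, adjusted p = 0.803 by limma). Other markers of the same lists went the other way without ZD8. ABCC9 (log2 difference 0.80) and KCNJ8 (0.31) of the pericyte markers were higher in ZD5 and ZD7 than in all SLS ovaries. So were VWF (0.61) and KDR (0.49) of the endothelial markers, while PECAM1 was lower (-0.52). LUM (0.46), COL3A1 (0.11), FSHR (0.46) and AMH (0.22) had positive differences with overlapping groups. The 6 endothelial markers summed to 260.0 to 334 FPKM in SLS and 129.99 to 383 FPKM in LLS, lowest in ZD8, where MYH11 and MYOCD were highest. The part of fibroblasts, vessels and luteal tissue in the members' levels was not tested.

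Outside the members, the genes most like them were found by Pearson r between log2(FPKM + 1) and the members' mean, ranked by the lower of r over the 6 ovaries and r over the 5 ovaries without ZD8. The first 5 were ACOT9 (r = 0.995 over 6 ovaries), ASB1 (0.993), CDC42EP2 (0.993), TFDP1 (0.990) and LOXL3 (0.987). ACOT9, a mitochondrial acyl-CoA thioesterase, was at 14.3, 11.9 and 14.0 FPKM in ZD2, ZD3 and ZD12 and at 9.70, 11.05 and 14.9 FPKM in ZD5, ZD7 and ZD8. LOXL3, a lysyl oxidase that cross-links collagen and elastin, was at 6.72, 4.70 and 6.81 FPKM in ZD2, ZD3 and ZD12 and at 2.73, 4.14 and 9.77 FPKM in ZD5, ZD7 and ZD8. They are the extremes of 12260 genes over few ovaries and are given as a description.

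The small RNA libraries of the same ovaries give another readout of the same tissue. miR-143 and miR-145 are made from 1 transcript that is abundant in smooth muscle and is itself switched on by SRF and myocardin, while miR-1 and miR-133a are best known from striated muscle. Their mature sequences are shown because the seed, bases 2 to 8 in capitals, sets which transcripts a miRNA can bind, and the 4 seeds differ.
miR-143-3p: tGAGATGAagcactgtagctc
miR-145-5p: gTCCAGTTttcccaggaatccctt
miR-1: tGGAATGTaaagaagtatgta
miR-133a-3p: tTGGTCCCcttcaaccagctg

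In RPM, which are reads scaled to the total of the small RNA library, miR-143-3p was at 73887, 77243 and 71604 in ZD2, ZD3 and ZD12 and at 57946, 48264 and 90263 in ZD5, ZD7 and ZD8. miR-145-5p was at 1832, 3982 and 6454 RPM in ZD2, ZD3 and ZD12 and at 3733, 1406 and 7001 RPM in ZD5, ZD7 and ZD8. For both, the LLS ovaries lay on either side of the SLS ovaries or overlapped with them. miR-1 was at 1468, 1516 and 1775 RPM in ZD2, ZD3 and ZD12 and at 1367, 666 and 2011 RPM in ZD5, ZD7 and ZD8. miR-133a-3p was at 26.2, 62.5 and 117 RPM in ZD2, ZD3 and ZD12 and at 67.8, 11.4 and 149 RPM in ZD5, ZD7 and ZD8. All 4 were highest in ZD8 and lowest in ZD7, whereas the contractile genes were lowest in ZD5. Of all 8 listed arms of the miR-143, miR-145, miR-1 and miR-133 families, 8 were lowest in ZD7 and 6 were highest in ZD8. Among 353 miRNAs that reached 1 RPM in 3 or more libraries, 13.3% were lowest in ZD7 and 15.9% were highest in ZD8, and arms of 1 hairpin are not separate observations. The exceptions were miR-143-5p, with 536 RPM in ZD12 and 379 RPM in ZD8, and miR-133a-5p, with 3.57 RPM in both ZD5 and ZD8. They were not tested between the groups here.

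**Figure D5:**
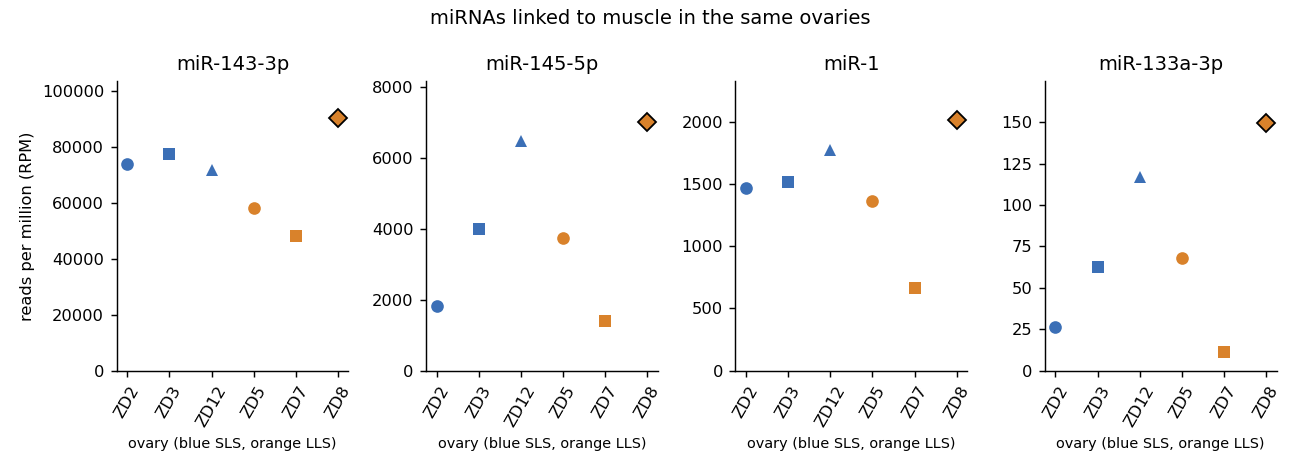
RPM of 4 miRNAs in the small RNA library of each ovary, on a linear axis from 0 in each panel, with SLS ovaries in blue, LLS ovaries in orange and ZD8 outlined. ZD8 is the highest point and ZD7 the lowest in each panel, and the groups overlap in all 4.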

How the data were processed

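Total RNA of the 6 ovaries was depleted of ribosomal RNA and sequenced with 1 library per ovary, and small RNA libraries were made of the same ovaries. The authors trimmed reads with NGSQCToolkit, mapped them to Sscrofa11.1 with HISAT2 and deposited FPKM per gene. The small RNA values, deposited as TPM, hold no length and are RPM, for which the submitters' notes name BWA. The program that counted reads on genes is not given in the sources used here. For 23477 of 23564 genes above 0 (99.6%), the deposited FPKM gave whole reads in all 6 libraries (within 0.001) with the longest RefSeq transcript as length. Of 29884 names, 29850 matched the annotation, and all 12 columns of values were used.

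Groups followed the labels. R 4.3.3 with limma 3.58.1 (trended variance) was run on log2(FPKM + 1), which understates differences of low genes, for genes with at least 1 FPKM in at least 3 libraries. Calls needed an adjusted p (Benjamini-Hochberg, over all tested genes) under 0.05 together with an absolute log2 difference over 1. The p-values measure the spread between these ovaries. The fit was tested on simulated data. Alternatives were the pseudocount (0.1), the filter, scaling, variance trend, array weights, edgeR 4.0.16 and DESeq2 1.42.0 on the recovered reads, and leaving out each ovary. The members and the lists of pathway and marker genes were chosen with earlier results of these data known. Named were all members, the 2 most abundant genes of each pathway list, list genes with an unadjusted p under 0.05, and the 5 genes most like the members' mean. Circular RNAs were not analysed here.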

Additional observations from a re-analysis of the deposited data

How the results depend on the processing

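No member was called under any of the 16 alternatives. The count of genes called was 0, and it was 13 with limma's array weights, 20 by DESeq2, 0 by edgeR, 0 to 21 when ovaries were left out singly (21 only without ZD8) and 216 at an unadjusted p under 0.05 with no fold threshold. Of the members, 1 (ACTG2) passed that last rule. Of the pathway genes, 0 were called, and 0 to 1 with each ovary left out. ACTA2, ACTG2, TAGLN, CNN1, DES and MYLK kept a negative log2 difference under all 16 alternatives. Without ZD5 their differences were nearer to 0, at -0.65, -1.04, -0.61, -0.33, -0.10 and -0.09 in that order. Array weights, which gave ZD8 a weight of 0.135 and the others 0.597 to 2.27, turned MYH11 to -0.90 and MYOCD to -1.03. With them all 10 members were below 0 with an unadjusted p under 0.05, as were 6.27% of all genes, and adjusted p lay between 0.0655 and 0.423. DESeq2 put 3 members at an unadjusted p under 0.05, for which the share over all genes was not counted, and gave no p for MYH11. On the recovered reads MYH11 was at 1.041 by edgeR and 1.015 by DESeq2 (0.28 by limma on FPKM), and MYOCD at 0.82 and 0.80 (0.16). LMOD1 turned to 0.289 by edgeR and 0.258 by DESeq2. SMTN turned to 0.073 after quantile normalization, 0.032 by edgeR and 0.0069 by DESeq2. When ovaries were left out singly, the log2 difference ran from -0.84 (without ZD8) to 0.92 for MYH11, from -0.965 to 0.346 for LMOD1 (positive without ZD2, ZD5 or ZD7), from -0.73 to 0.305 for SMTN (positive without ZD5) and from -0.86 to 0.67 for MYOCD (negative without ZD3 or ZD8). The difference of the members' summed FPKM, LLS minus SLS, was -587.8, and -880.3 to -262.7 with each ovary left out, smallest without ZD2. That of their mean log2 level was -0.496, and -1.075 (without ZD8) to -0.0589 (without ZD5). The causes of these shifts were not tested. Each member held at least 246 reads in each ovary, and the intervals of 9 of the 10 included 0.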

Other observations

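Of the 71 tested pathway genes, 23 (32.4%) were highest in ZD8, beside 44.6% of all tested genes. In ZD5, 24 of the 71 (33.8%) were lowest, beside 18.97% of all tested genes. Among the lists, 12 of the 20 tested genes of dense plaques and cytoskeletal linkers (60%) and both other actins tested were lowest in ZD5. Several genes of the lists outside the naming rule had a level in ZD8 outside the range of the other ovaries, as MYH11 had, and a few are named here after their values were seen and without a test. KCNMA1, the pore of the large-conductance potassium channel that limits smooth muscle contraction, was at 23.3 FPKM in ZD8, with a range of 1.495 to 6.80 FPKM over the remaining 5 ovaries. SYNM, the intermediate filament protein synemin, was at 27.7 FPKM against 4.31 to 7.89 FPKM, and SYNPO2, an actin-bundling protein of smooth and striated muscle, at 38.4 FPKM against 9.12 to 18.4 FPKM. PLN, the inhibitor of the calcium store pump, was at 27.5 FPKM against 3.89 to 16.6 FPKM, and PPP1R12B, a targeting subunit of the myosin phosphatase, at 30.8 FPKM against 4.63 to 18.8 FPKM. AVPR1A, a vasopressin receptor, was at 0.0128 FPKM in ZD8, at 2.38 and 5.09 FPKM in ZD5 and ZD7 and between 0.306 and 0.565 FPKM in the SLS ovaries.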
